A study of Homo sapiens with 24 samples.

Results

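The 28 genes described here encode the factors, enzymes and carriers that make cholesterol and fatty acids. They were taken by symbol from an FPKM table of 58381 gene IDs (fragment counts scaled for transcript length and library size), and 28 of 28 were found. All 28 also passed the filter on low values, a mean of at least 0.5 FPKM over all libraries, which left 14228 genes to test. The libraries came from HaCaT cells, an established human keratinocyte line, carrying either an hsa-miR-186 overexpression construct or the empty vector. Cells of each construct grew with 100 nM or 0 nM inorganic arsenic (iAs) and were sampled after 29 and 12 weeks. This gave 8 groups of 3 libraries, 24 in all. At each week they were miR-186 clones at 100 nM, miR-186 clones at 0 nM, vector clones at 100 nM and vector clones at 0 nM.

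Each construct was represented by 3 clonal lines kept for the whole exposure, and the labels do not say which replicate number belongs to which clone. A difference between clones and an effect of the construct cannot be told apart, and p-values measure only the spread between these samples. The study addressed how raised miR-186 and long exposure to low-dose arsenic, alone and together, alter keratinocytes. Mature miR-186 is not measured in libraries of poly(A) RNA, and its precursor entry MIR186 was listed at 0 in 24 of 24 libraries, so the overexpression itself was not checked here.

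The pathway is controlled by feedback. The factors SREBP-1 and SREBP-2, encoded by SREBF1 and SREBF2, are held in the endoplasmic reticulum membrane by INSIG proteins while sterol is plentiful. When sterol is scarce they are cut free and switch on the genes of sterol synthesis, chiefly through SREBP-2, and of fatty acid synthesis and desaturation, chiefly through SREBP-1. In keratinocytes these lipids supply membranes and the barrier of the outer skin.

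SREBP proteins bind DNA at sterol regulatory elements and E-boxes, usually beside sites for factors such as NF-Y, which binds CCAAT boxes. The 150 bases before the RefSeq start (GRCh38.p14) are shown for both factor genes, whose levels behaved differently, for HMGCS1 and MSMO1, members of a group of sterol genes whose levels moved together, and for FADS1, a gene lower in miR-186 clones. Capitals mark a sterol regulatory element (TCACNCCAC), an E-box (CACGTG) or a CCAAT box (CCAAT), on either strand. None of these motifs overlapped another in the windows shown.
SREBF1, chr17:17836987-17837136, minus strand: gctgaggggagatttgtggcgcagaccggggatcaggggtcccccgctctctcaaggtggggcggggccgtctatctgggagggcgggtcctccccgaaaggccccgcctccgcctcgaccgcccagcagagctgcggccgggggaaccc
SREBF2, chr22:41832955-41833104, plus strand: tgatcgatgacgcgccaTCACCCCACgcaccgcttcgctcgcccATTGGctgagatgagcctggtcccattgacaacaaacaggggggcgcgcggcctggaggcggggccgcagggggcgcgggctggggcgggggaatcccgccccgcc
HMGCS1, chr5:43313413-43313562, minus strand: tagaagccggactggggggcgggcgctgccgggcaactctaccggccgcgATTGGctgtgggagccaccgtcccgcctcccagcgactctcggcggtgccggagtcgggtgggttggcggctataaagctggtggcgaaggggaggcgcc
MSMO1, chr4:165327519-165327668, plus strand: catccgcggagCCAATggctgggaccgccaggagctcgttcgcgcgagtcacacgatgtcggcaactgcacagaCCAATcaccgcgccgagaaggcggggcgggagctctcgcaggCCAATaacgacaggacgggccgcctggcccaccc
FADS1, chr11:61817004-61817153, minus strand: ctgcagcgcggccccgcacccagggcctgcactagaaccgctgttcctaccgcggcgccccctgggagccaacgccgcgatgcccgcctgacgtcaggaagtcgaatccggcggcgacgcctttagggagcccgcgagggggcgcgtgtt
The windows of SREBF1 and FADS1 held none of these letters, that of SREBF2 held a sterol regulatory element and a CCAAT box, and that of MSMO1 held 3 CCAAT boxes. RefSeq promoters, 250 bases before to 50 after the start, were found for 24 of the 28 genes (33 promoters). The sterol regulatory element was present in 1 of the 33 promoters, that of SREBF2, against 1.13% of all 35116 promoters. The E-box was present in 4 of the 33 promoters, belonging to 3 genes, INSIG1, LSS and SC5D, against 7.26% of all promoters. The SC5D promoters counted overlap each other. The CCAAT box was present in 24 of the 33 promoters, belonging to 20 genes, against 34.6% of all promoters. These are matches of letters only.

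All libraries carried the keratinocyte profile, with 13 of 13 keratinocyte markers measured. None of 4 immune markers and none of 7 markers of lipid-storing cells passed the filter, and the lipid-cell genes AWAT1 and MOGAT1 were at 0 in every library. Of other cell types, 1 of 4 melanocyte markers (PMEL), 1 of 3 endothelial markers (CDH5) and 3 of 6 fibroblast markers (COL1A1, DCN and LUM) passed it. Summed FPKM ran between 712800 and 905680 and relative depth between 0.856 and 1.12, so that 1 fragment on a 3 kb transcript was worth 0.00957 to 0.0125 FPKM. Libraries also differed in how levels leaned with GC content, from -0.37 to 0.43 log2 units per 10 percentage points of GC. The summed keratinocyte markers at week 29 averaged 2447 FPKM (100 nM) and 2261 FPKM (0 nM) in miR-186 clones, against 4179 and 3684 FPKM in vector clones. In bulk samples, fewer cells of a type and less RNA per cell cannot be told apart.

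By level, the family was led by SCD, the desaturase that makes monounsaturated fatty acids. SCD averaged 557 FPKM over 24 libraries (range 145 to 1084 FPKM). FDPS followed at 156 FPKM, FDFT1 at 116, SREBF1 at 103, FADS1 at 95.4 and SREBF2 at 91.9 FPKM. At the low end stood TM7SF2, a sterol reductase, at 3.02 FPKM and FASN, the fatty acid synthase, at 3.5 FPKM. FASN spanned the widest ratio of the 28, with 17.9 FPKM in the highest library over 0.671 FPKM in the lowest. SREBF2 spanned the narrowest, with 118 FPKM in the highest and 62.0 FPKM in the lowest. Neighbours in this order, such as SREBF1 and FADS1, had ranges that overlapped widely.

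Between constructs, the factor gene SREBF1 was lower in miR-186 clones than in vector clones at week 29 at either dose, and the polyunsaturated fatty acid desaturases FADS1 and FADS2 were lower at week 12 and 0 nM. Neither SREBF2 nor any enzyme of the mevalonate and sterol branches passed the test. The test was limma on log2(FPKM + 0.5), fitted over all genes and all 8 groups with Benjamini-Hochberg adjustment, and a gene is called at an adjusted p under 0.05. Changes are on that log2 scale with their standard error, which understates the change of low genes. Whether groups overlapped is described for single genes, and the share of all genes tested that did not overlap is not given here. Lack of overlap alone therefore sets no gene apart from the table.

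SREBF1 (ENSG00000072310, chromosome 17, 17810399 to 17837002, minus strand, GRCh38) encodes SREBP-1. At week 29 and 100 nM it was at 37.2, 55.8 and 43.9 FPKM in miR-186 clones, against 128, 180.2 and 77.8 FPKM in vector clones. At week 29 and 0 nM it was at 39.9, 39.7 and 44.4 FPKM in miR-186 clones, against 116, 114 and 63.6 FPKM in vector clones. Every miR-186 library at week 29 was below every vector library of that week. SREBF1 was lower by -1.42 ± 0.31 at 100 nM (limma adjusted p = 0.0307) and by -1.18 ± 0.31 at 0 nM (limma adjusted p = 0.0452). Leaving out 1 library at a time lost the call in 4 of 6 fits at 100 nM, with adjusted p up to 0.184, and in 5 of 6 fits at 0 nM, with adjusted p up to 0.191. It was kept at 100 nM without miR-186 replicate 3 or vector replicate 3 (limma adjusted p = 0.0494 and 0.0112), and at 0 nM without vector replicate 3 (0.0316). Fitting only the groups compared also lost both calls (limma adjusted p = 0.196 at 100 nM and 0.0532 at 0 nM), as did leaving out the filter on low values.

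At week 12 and 100 nM, SREBF1 was at 71.3, 105 and 112 FPKM in miR-186 clones, against 136, 209 and 353 FPKM in vector clones. The groups did not overlap, but the difference of -1.19 ± 0.31 missed the threshold (limma adjusted p = 0.0527). At week 12 and 0 nM it was at 106, 78.9 and 79.2 FPKM in miR-186 clones, against 88.3, 99.3 and 85.6 FPKM in vector clones. There the groups overlapped, with a difference of -0.06 ± 0.31. The difference between the construct effects of week 29 and week 12 at 0 nM was -1.12 ± 0.44 for SREBF1 and was not called (limma adjusted p = 0.339).

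SREBF1 is a GC-rich gene (62.8% of its longest transcript), and its level moved with the GC lean of the library (r = 0.76 between deviations from group means, 24 libraries). It also moved with the summed keratinocyte markers (r = 0.73). The GC lean averaged -0.135 in miR-186 clones and 0.0443 in vector clones at week 29 and 100 nM, and -0.261 in miR-186 clones and -0.0435 in vector clones at week 29 and 0 nM. With a correction for GC content the SREBF1 differences were -1.05 ± 0.20 at 100 nM and -0.78 ± 0.20 at 0 nM at week 29, both called (limma adjusted p = 0.0115 and 0.0348), and -1.02 ± 0.20 at 100 nM and week 12, now called as well (limma adjusted p = 0.00685). Of the 13 keratinocyte markers, 13 were below 0 at week 29 and 100 nM (median -0.53, 1 called lower) and 10 at week 29 and 0 nM (median -0.49, 3 called lower). Their part in the SREBF1 differences was not tested. The proliferation markers had differences below 0 in 12 of 12 genes at 100 nM and week 29 (median -0.93, none called by limma, 8 with an unadjusted p under 0.05), and their part was not tested either.

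SREBF2, which encodes SREBP-2, showed no such separation. It was at 91.8, 95.7 and 70.4 FPKM in miR-186 clones at week 29 and 100 nM, against 97.1, 94.9 and 92.9 FPKM in vector clones. Its differences between constructs were -0.16 and -0.03 at week 29 and 0.23 and 0.08 at week 12 (100 nM and 0 nM), with a standard error of 0.17 and limma adjusted p from 0.566 to 0.938. Those of INSIG1 were -0.51 and -0.89 at week 29 and -0.42 and -0.61 at week 12, with a standard error of 0.44 and none called.

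**Figure D1:**
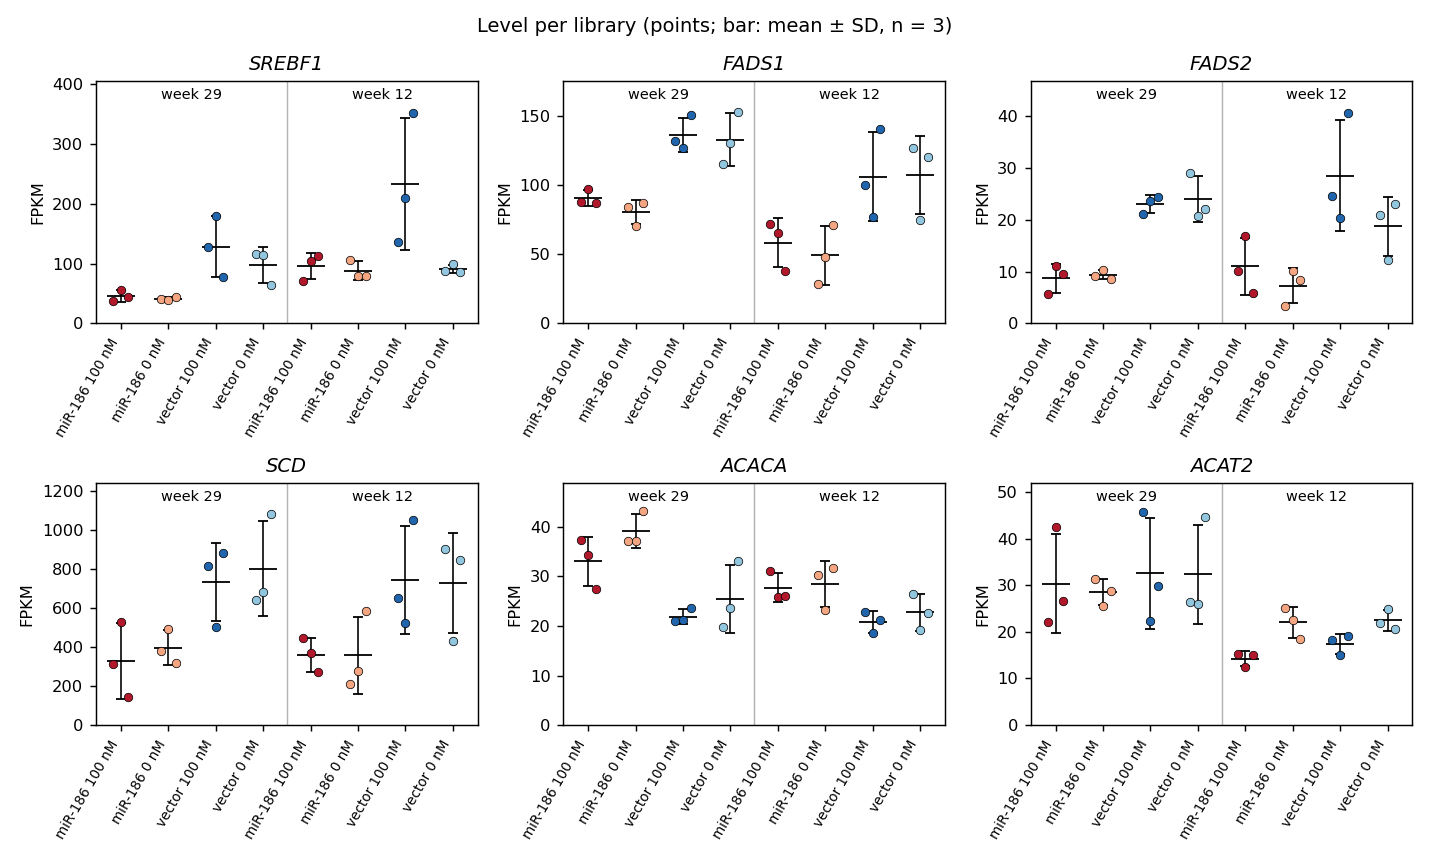
FPKM of SREBF1, FADS1, FADS2, SCD, ACACA and ACAT2 in each of the 24 libraries, by week, construct and iAs dose; points are libraries and bars are the group mean ± SD (n = 3). At week 29 all 6 miR-186 libraries of SREBF1 lie between 37.2 and 55.8 FPKM, below all 6 vector libraries, and FADS2 does not overlap between constructs in any of the 4 pairs.

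FADS1 (ENSG00000149485, 61799625 to 61829318, minus strand) and FADS2 (ENSG00000134824, 61792980 to 61867354, plus strand) are neighbouring genes on chromosome 11 that encode the desaturases of polyunsaturated fatty acids. At week 12 and 0 nM, FADS1 was at 28.6, 48.2 and 71.5 FPKM in miR-186 clones, against 127, 75.1 and 121 FPKM in vector clones. At the same week and dose, FADS2 was at 3.45, 10.1 and 8.30 FPKM in miR-186 clones, against 21.0, 12.1 and 23.0 FPKM in vector clones. Both genes were lower there, FADS1 by -1.17 ± 0.28 (limma adjusted p = 0.0271) and FADS2 by -1.37 ± 0.37 (limma adjusted p = 0.0439). For each gene the call was lost in 4 of 6 fits that left out 1 library, with adjusted p up to 0.14 for FADS1 and 0.2 for FADS2. FADS1 kept it without miR-186 replicate 3 or vector replicate 2 (limma adjusted p = 0.00974 and 0.022), and FADS2 without replicate 2 of either construct (0.0444 for miR-186 and 0.0414 for vector). Both calls were also lost with only the groups compared (limma adjusted p = 0.14 for FADS1 and 0.137 for FADS2) and with no filter on low values (0.0512 and 0.0801).

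In the other 3 construct comparisons neither gene passed the threshold. As a description only, neither overlapped between constructs in any of the 4. FADS2 was at 5.64, 11 and 9.46 FPKM in miR-186 clones at week 29 and 100 nM, against 21.0, 23.7 and 24.4 FPKM in vector clones. Its differences lay in a narrow band, -1.40 at 100 nM and -1.30 at 0 nM at week 29 (limma adjusted p = 0.0745 and 0.0592), and -1.39 at 100 nM and week 12 (limma adjusted p = 0.0551). Those of FADS1 were -0.58 and -0.71 at week 29 and -0.86 at 100 nM and week 12 (limma adjusted p = 0.354, 0.166 and 0.137). FADS1 and FADS2 overlap by 165 bases on opposite strands, and whether the counting used strand is not given in the sources used here.

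Over all 28 genes, the counts of calls were small. At week 12 and 0 nM, 2 of 28 were lower in miR-186 clones (FADS1 and FADS2) and none higher, where 2.02% of all genes tested were called lower and 3.44% in either direction. At week 29 and 0 nM, 1 of 28 was lower (SREBF1), where 1.1% of all genes were called lower and 2.86% in either direction. At week 29 and 100 nM, 1 of 28 was lower (SREBF1), where 0.408% of all genes were called lower and 0.864% in either direction. At week 12 and 100 nM limma called 0 of 28, against 2.02% of all genes, and 7 had an unadjusted p under 0.05. With so few calls, the counts alone do not set the 28 genes apart from the table.

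The direction was shared more widely than the calls. At week 29, 23 of 28 genes were below 0 at 100 nM (median change -0.45, against 0.00 for all genes tested), and 26 of 28 at 0 nM (median -0.54, against 0.02). At week 12, 22 of 28 were below 0 at 100 nM (median -0.28, against -0.04), and 21 of 28 at 0 nM (median -0.11, against -0.03). Of all genes tested, 50.1% and 52% were above 0 at week 29 and 45.2% and 47.1% at week 12 (100 nM and 0 nM). The 28 genes were correlated within groups (median r = 0.412), so their directions are not separate results. Leaving out 1 library moved the median by over 1.5 times in 3 of these comparisons while it stayed below 0. At 100 nM and week 29 it was -0.18 without vector replicate 1 and -0.19 without miR-186 replicate 1. At 100 nM and week 12 it was -0.07 without vector replicate 3 and -0.46 without vector replicate 2. At 0 nM and week 12 the 6 values lay between -0.34 (without vector replicate 2) and -0.12, and the GC correction gave -0.25.

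The rest of the fatty acid branch split in direction. SCD was at 313, 531 and 145 FPKM in miR-186 clones at week 29 and 100 nM, against 815, 505 and 884 FPKM in vector clones. The highest miR-186 library was above the lowest vector library, and the difference of -1.30 ± 0.43 was not called (limma adjusted p = 0.152). The other SCD differences were -1.0 at 0 nM and week 29, -1.01 at 100 nM and week 12 and -1.09 at 0 nM and week 12, none called (limma adjusted p = 0.2, 0.28 and 0.164). ELOVL6, which elongates the products of FASN, differed by -0.52, -0.42, -0.58 and -0.54 in the same order of comparisons, none called.

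ACACA, which makes malonyl-CoA, and ACLY, which supplies cytosolic acetyl-CoA, stood on the other side of 0. ACACA was at 37.2, 37.2 and 43.2 FPKM in miR-186 clones at week 29 and 0 nM, against 19.8, 23.6 and 33.1 FPKM in vector clones. The groups did not overlap, and the difference of 0.64 ± 0.18 missed the threshold (limma adjusted p = 0.0549). It was called with the replicate number as a block (limma adjusted p = 0.0348) and with the GC correction (limma adjusted p = 0.0444). Its other differences were 0.57, 0.40 and 0.32, and those of ACLY were 0.52 and 0.43 at week 29 and 0.54 and 0.56 at week 12, at 100 nM and 0 nM.

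ACACA and ACLY both lie on chromosome 17 (ACACA at 37084988 to 37406818 and ACLY at 41866908 to 41930542, GRCh38), among genes that were also higher in miR-186 clones. Of 56 tested neighbours within 2 Mb of ACACA, 6 and 12 passed the test as higher at week 29 (100 nM and 0 nM) and 11 and 17 at week 12, with none lower in any of the 4. Of 91 tested neighbours of ACLY, 7 and 16 were higher at week 29 and 19 and 24 at week 12, again with none lower. The neighbours' median changes ran from 0.42 to 0.58 around ACACA and from 0.27 to 0.75 around ACLY. Around SREBF1, on the same chromosome (17810399 to 17837002), the medians of 61 neighbours ran from -0.09 to 0.10. The part of these chromosome segments in the levels of ACACA and ACLY was not tested.

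The mevalonate enzymes turn acetyl-CoA into farnesyl diphosphate. Among them FDPS, which makes farnesyl diphosphate, was below 0 in all 4 construct comparisons. FDPS was at 133, 129 and 128 FPKM in miR-186 clones at week 29 and 0 nM, against 187, 185 and 267 FPKM in vector clones, with no overlap. Its differences were -0.50 and -0.69 at week 29 and -0.75 and -0.56 at week 12 (100 nM and 0 nM), none called (limma adjusted p = 0.361, 0.126, 0.133 and 0.208). HMGCS1, which makes the substrate of the rate-limiting reductase, differed by 0.28 and -0.24 at week 29 and by -0.12 at either dose at week 12, with overlap in every pair.

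The 11 enzymes of squalene and sterol synthesis had small differences between constructs, with medians of -0.20 and -0.31 at week 29 and -0.17 and -0.26 at week 12. None was called, and 9, 11, 8 and 10 of the 11 were below 0 in those comparisons. The largest was that of TM7SF2, at 1.89, 1.73 and 1.76 FPKM in miR-186 clones at week 29 and 100 nM, against 5.56, 4.45 and 3.12 FPKM in vector clones. Its difference of -1.06 ± 0.31 was not called (limma adjusted p = 0.106). EBP, a sterol isomerase, was at 70.9, 48.5 and 57.6 FPKM in miR-186 clones at week 29 and 0 nM, against 111, 88.7 and 113 FPKM in vector clones. The difference of -0.82 ± 0.29 was not called either (limma adjusted p = 0.12), although the groups did not overlap. Within groups, the level of EBP moved with the GC lean of the library (r = 0.67).

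**Figure D2:**
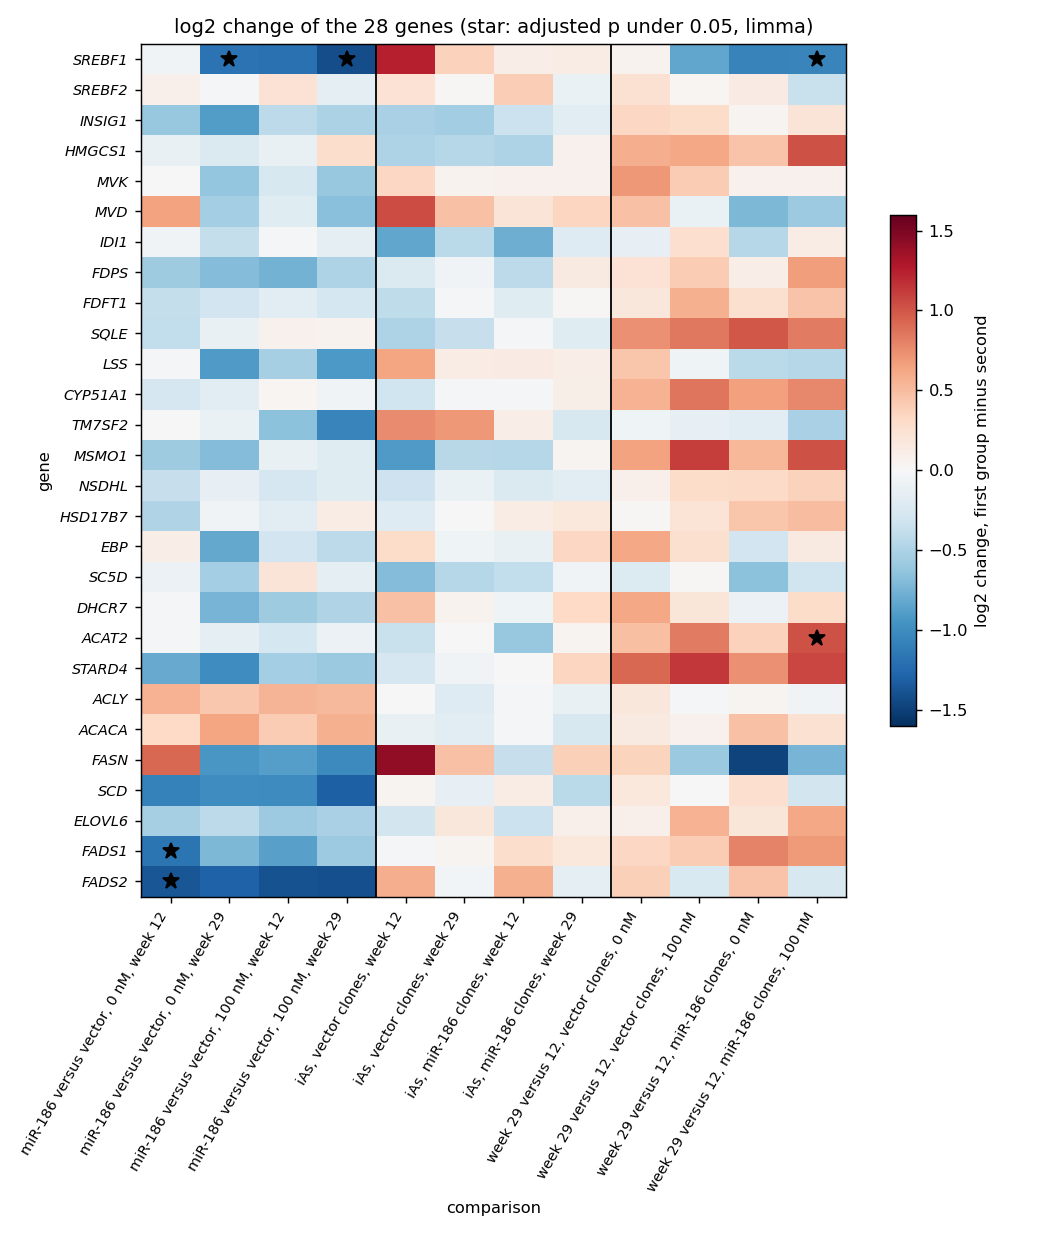
Log2 change of each of the 28 genes (down the page, by role) in the 12 comparisons of 2 groups (across), on a colour scale from -1.6 to 1.6, with a star where the adjusted p was under 0.05. The 6 stars are FADS1 and FADS2 between constructs at 0 nM and week 12, SREBF1 between constructs at week 29 at either dose, and SREBF1 and ACAT2 between weeks in miR-186 clones at 100 nM.

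Inorganic arsenic is a skin carcinogen, and the comparison of 100 nM with 0 nM asks what a low dose does. No member passed the test with dose in either construct at either week. In vector clones at week 12 limma called 0 of 28, against 1.38% of all genes, with 4 members at an unadjusted p under 0.05. SREBF1 was nearest to the threshold there, at 136, 209 and 353 FPKM at 100 nM, against 88.3, 99.3 and 85.6 FPKM at 0 nM. The groups did not overlap and the difference was 1.24 ± 0.31 (limma adjusted p = 0.0507). FASN was at 3.20, 3.60 and 17.9 FPKM at 100 nM, against 2.73, 0.892 and 2.71 FPKM at 0 nM, a difference of 1.42 ± 0.57 to which replicate 3 contributed most (limma adjusted p = 0.112). The GC lean of these libraries averaged 0.277 at 100 nM and -0.136 at 0 nM. With the GC correction the SREBF1 difference was 0.50 (limma adjusted p = 0.27) and that of FASN was 0.57 (limma adjusted p = 0.498).

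The other 3 arsenic comparisons called 0 of 28 by limma and 0% of all genes. In vector clones at week 29, 1 member had an unadjusted p under 0.05, and the members with the smallest p were TM7SF2 (0.69 ± 0.31) and IDI1 (-0.43 ± 0.33), both at a limma adjusted p of 1. In miR-186 clones at week 12, 3 members had an unadjusted p under 0.05. The smallest p were those of ACAT2 (-0.60 ± 0.25, limma adjusted p = 0.399) and of IDI1 (-0.78 ± 0.33, limma adjusted p = 0.411), the isomerase of the mevalonate branch. IDI1 was at 32.5, 30.4 and 27.6 FPKM at 100 nM, against 39.6, 72.8 and 49.4 FPKM at 0 nM, with no overlap.

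IDI1 also did not overlap between doses in vector clones at week 12, with 33.2, 27.4 and 30.9 FPKM at 100 nM, against 47.1, 63.3 and 54.3 FPKM at 0 nM. That difference was -0.83 ± 0.33 (limma adjusted p = 0.113). In miR-186 clones at week 29 no member had an unadjusted p under 0.05, and the smallest p were those of ACACA (-0.25 ± 0.18) and EBP (0.33 ± 0.29), at a limma adjusted p of 0.999. The median change of the 28 genes with arsenic was -0.03 in vector and 0.05 in miR-186 clones at week 29, and -0.16 and -0.03 at week 12. Each of the 4 medians crossed 0 in at least 1 fit that left out a library, with ranges of -0.22 to 0.11 and -0.23 to 0.22 at week 29, and of -0.25 to 0.05 and -0.18 to 0.0098 at week 12.

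Between weeks, the thiolase gene ACAT2 was higher and SREBF1 lower at week 29 in miR-186 clones at 100 nM, and no member passed the test in the other 3 week comparisons. The median changes of the mevalonate and sterol branches were above 0 in all 4. ACAT2 (ENSG00000120437, chromosome 6, 159760328 to 159779055, plus strand), the cytosolic thiolase at the head of the mevalonate pathway, was at 22.2, 42.4 and 26.5 FPKM at week 29 in miR-186 clones at 100 nM, against 15.3, 12.4 and 15.1 FPKM at week 12. It rose by 1.02 ± 0.25 (limma adjusted p = 0.0177), and 5 of 6 fits that left out 1 library kept the call. The exception was the fit without replicate 2 at week 12, at a limma adjusted p of 0.111. With only the groups compared the call was lost as well (limma adjusted p = 0.091). ACAT2 overlaps TCP1, at 158 FPKM, by 397 bases on the opposite strand.

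In the other week comparisons ACAT2 did not overlap between weeks either, with differences of 0.37 in miR-186 clones at 0 nM, 0.83 in vector clones at 100 nM and 0.48 in vector clones at 0 nM, none called. SREBF1 fell by 1.06 ± 0.31 at week 29 in miR-186 clones at 100 nM (limma adjusted p = 0.0362), with all 3 libraries of week 29 below those of week 12. Leaving out 1 library lost that call in 4 of 6 fits, with adjusted p up to 0.169. It was kept without replicate 2 of week 29 or replicate 1 of week 12 (limma adjusted p = 0.0301 and 0.0346), and lost with only the groups compared (0.084) or with no filter (0.0799). With the GC correction the change was -0.44 and was not called (limma adjusted p = 0.18). In miR-186 clones at 0 nM the difference was -1.07 ± 0.31 (limma adjusted p = 0.0641).

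FDPS was at 109, 228 and 119 FPKM at week 29 in miR-186 clones at 100 nM, against 96.0, 93.4 and 82.0 FPKM at week 12. The weeks did not overlap, and the difference of 0.66 ± 0.25 was not called (limma adjusted p = 0.0753). With the GC correction it was 0.94 ± 0.24 and was called (limma adjusted p = 0.03).

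As counts, in miR-186 clones at 100 nM, 1 of 28 was higher at week 29 (ACAT2) and 1 lower (SREBF1), where 7.11% of all genes were called higher, 5.07% lower and 12.2% in either direction. In miR-186 clones at 0 nM limma called 0 of 28, against 2.9% of all genes, with 6 members at an unadjusted p under 0.05. In vector clones limma called 0 of 28 at 100 nM, against 0.183% of all genes, and 0 of 28 at 0 nM, against 0.907%, with 5 and 3 members at an unadjusted p under 0.05. Here too the calls were too few to set the 28 genes apart from the table.

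SQLE, the epoxidase that commits squalene to sterol, was at 51.7, 41.8 and 39.9 FPKM at week 29 in miR-186 clones at 0 nM, against 16.4, 26.7 and 24 FPKM at week 12. The weeks did not overlap in any of the 4 comparisons of SQLE, with differences of 0.83 and 0.99 in miR-186 clones and 0.85 and 0.73 in vector clones (100 nM and 0 nM). None was called (limma adjusted p = 0.0987, 0.0947, 0.272 and 0.497). CYP51A1, the lanosterol demethylase, differed by 0.77 and 0.66 in miR-186 clones and by 0.85 and 0.56 in vector clones, none called. MVK, the mevalonate kinase, differed by 0.69 ± 0.30 in vector clones at 0 nM (limma adjusted p = 0.461).

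The median change of the 28 genes between weeks was 0.23 and 0.17 in miR-186 clones and 0.26 and 0.33 in vector clones, against medians of all genes between -0.02 and 0.06. By branch, the mevalonate enzymes had medians of 0.39 and 0.09 in miR-186 clones and 0.41 and 0.47 in vector clones, and the sterol enzymes 0.37 and 0.25 in miR-186 clones and 0.26 and 0.44 in vector clones. Replicate 2 of miR-186 clones at week 29 and 100 nM had the highest level of its group in 24 of the 28 genes. Without it the median between weeks in these clones was -0.15, so that direction rested on 1 library. The other medians stayed above 0 when 1 library was left out, with lowest values of 0.02 in miR-186 clones at 0 nM without week 12 replicate 1, 0.10 in vector clones at 100 nM without week 29 replicate 1, and 0.14 in vector clones at 0 nM without week 12 replicate 2. Replicate 2 of miR-186 clones at week 29 and 100 nM also had the lowest sum of proliferation markers of all 24 (215 FPKM) and the lowest mitochondrial share (10.3%), and the part of these in the result was not tested.

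**Figure D3:**
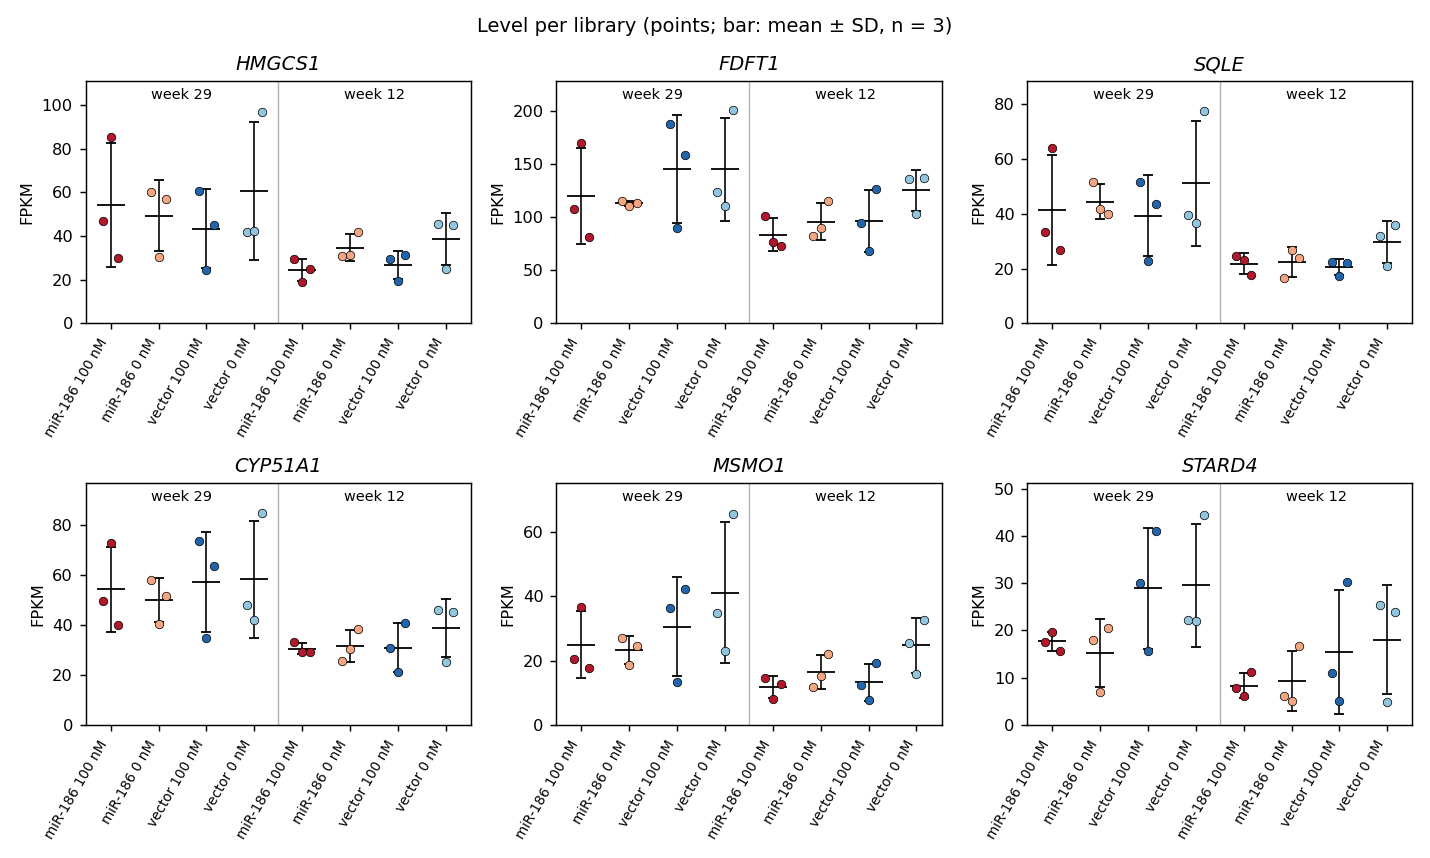
FPKM of HMGCS1, FDFT1, SQLE, CYP51A1, MSMO1 and STARD4 in each of the 24 libraries, by week, construct and iAs dose; points are libraries and bars are the group mean ± SD (n = 3). SQLE does not overlap between week 29 and week 12 in any of the 4 week comparisons while it overlaps between constructs in each pair, and replicate 2 is the highest of its group in each panel for miR-186 clones at week 29 and 100 nM.

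Whether the effects of dose, construct and week differed from each other was tested in 6 further contrasts. Limma called 0 of 28 members and 0% of all genes in each. Unadjusted p under 0.05 were found for 2 members and 1 member in the difference of arsenic effects between constructs (week 12 and week 29), for 3 members in the difference of construct effects between weeks at 0 nM, and for none in the other 3. The smallest p belonged to SREBF1 (-1.13 ± 0.44, limma adjusted p = 0.977) and to TM7SF2 (-0.95 ± 0.44, limma adjusted p = 1) in the arsenic contrasts between constructs at week 12 and week 29. In the other contrasts it belonged to SREBF1 for arsenic between weeks in vector clones (-0.88, limma adjusted p = 0.656) and for construct between weeks at 0 nM, given above, and to SREBF2 for arsenic between weeks in miR-186 clones (-0.49) and for construct between weeks at 100 nM (-0.39), both at a limma adjusted p of 1.

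Libraries of the same group differed from each other in many members at once. In deviations from group means over 24 libraries, the sterol genes HMGCS1, FDFT1, SQLE, CYP51A1 and MSMO1 moved closely together. These 5 genes were picked from the 28, so their correlations describe them and are no test. Their 10 pairwise correlations ran from 0.827 to 0.944 (median 0.896), and from 0.856 upwards with the GC correction. Over the 11 enzymes of squalene and sterol synthesis the median was 0.427, close to the 0.412 over all pairs of the 28 genes. It was -0.000715 for pairs among 2574 genes, taken at a fixed step from those above 1 FPKM without excluding members. These correlations describe libraries that share their depth, composition and processing.

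The other members followed this group to different degrees. Their mean correlation with HMGCS1, SQLE, MSMO1 and CYP51A1 was 0.75 for SCD and for INSIG1, the retention protein, 0.71 for STARD4, which carries sterol between membranes, and 0.54 for SREBF2. It was -0.33 for SREBF1, -0.34 for TM7SF2 and -0.27 for SC5D, a sterol desaturase. SC5D had 1 outlying value, 169.9 FPKM in replicate 2 of vector clones at week 12 and 0 nM, against 46.7 and 47.0 FPKM in the others of that group, while that library was the lowest of its group in 20 of the 28 genes. The mean level of the 5 sterol genes had r = -0.49 with the summed proliferation markers, -0.42 with the mitochondrial share and -0.18 with the GC lean.

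**Figure D4:**
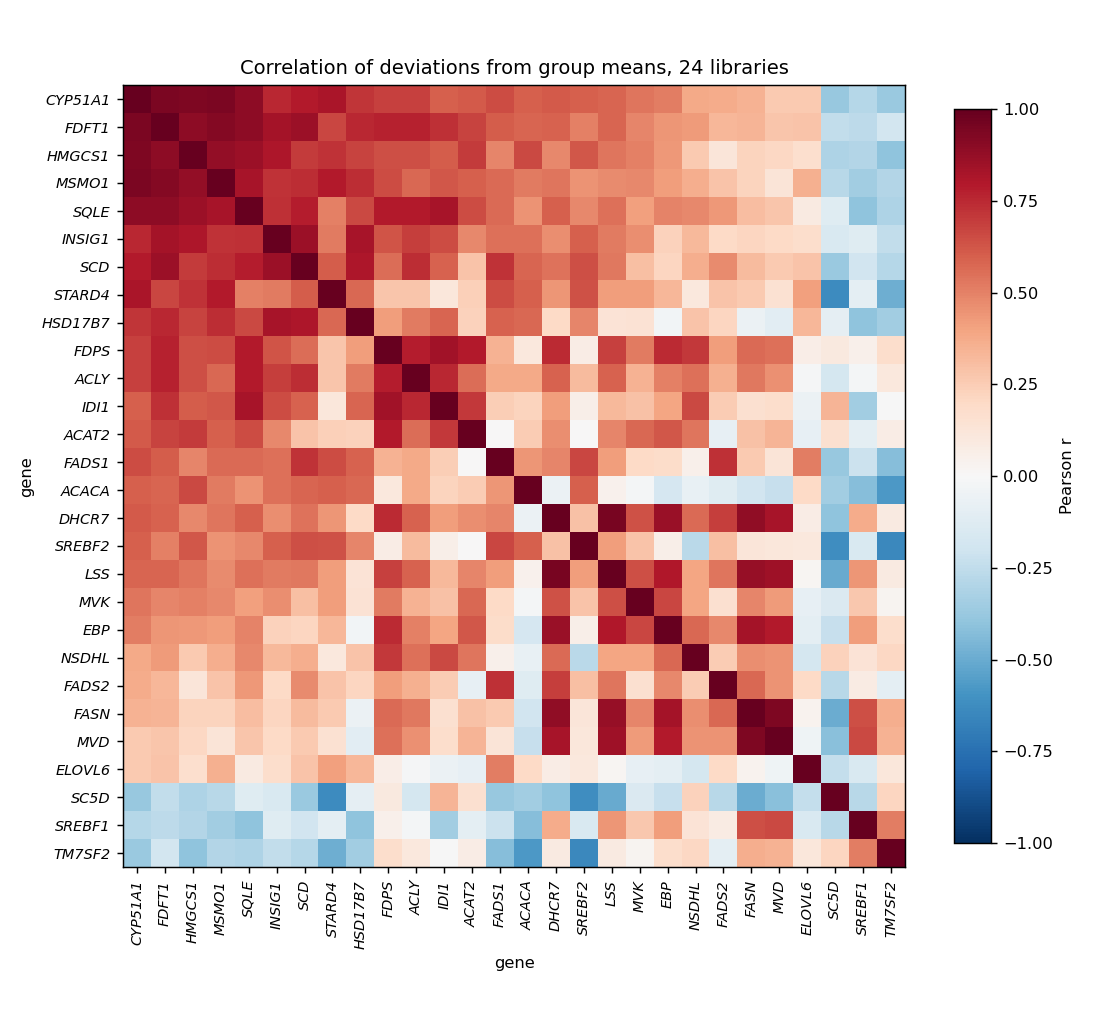
Pearson correlation of log2 levels, as deviations from group means over 24 libraries, for each pair of the 28 genes, ordered by mean correlation with HMGCS1, SQLE, MSMO1 and CYP51A1. The 5 genes HMGCS1, FDFT1, SQLE, CYP51A1 and MSMO1, picked from the 28, have pairwise correlations from 0.827 to 0.944. SREBF1 and the sterol genes SC5D and TM7SF2 stand at the far end.

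The members richest in GC were looked at as a set picked by GC content, not by how they moved. MVD, a mevalonate enzyme, and FASN had r = 0.935 with each other, and 0.828 with the GC correction. LSS and DHCR7, both under 60% GC, were also close to MVD (r = 0.849 and 0.825) and to FASN (0.874 and 0.886). TM7SF2 had r = 0.344 with MVD and 0.362 with FASN. SREBF1 and FASN had r = 0.646, and -0.0801 with the GC correction. The 4 members over 60% GC (SREBF1, MVD, FASN and TM7SF2) correlated with the GC lean of the library at 0.401 to 0.836, and the 8 members under 45% GC at -0.507 to -0.128. The values of SREBF1, MVD, FASN and TM7SF2 within a group thus moved with a property of the library as a whole. This was not particular to them. LSS, EBP and DHCR7, with 58.3%, 53.5% and 58.3% GC, had r = 0.672, 0.667 and 0.633 with the GC lean, and ACACA, with 48.7% GC, had r = -0.516.

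**Figure D5:**
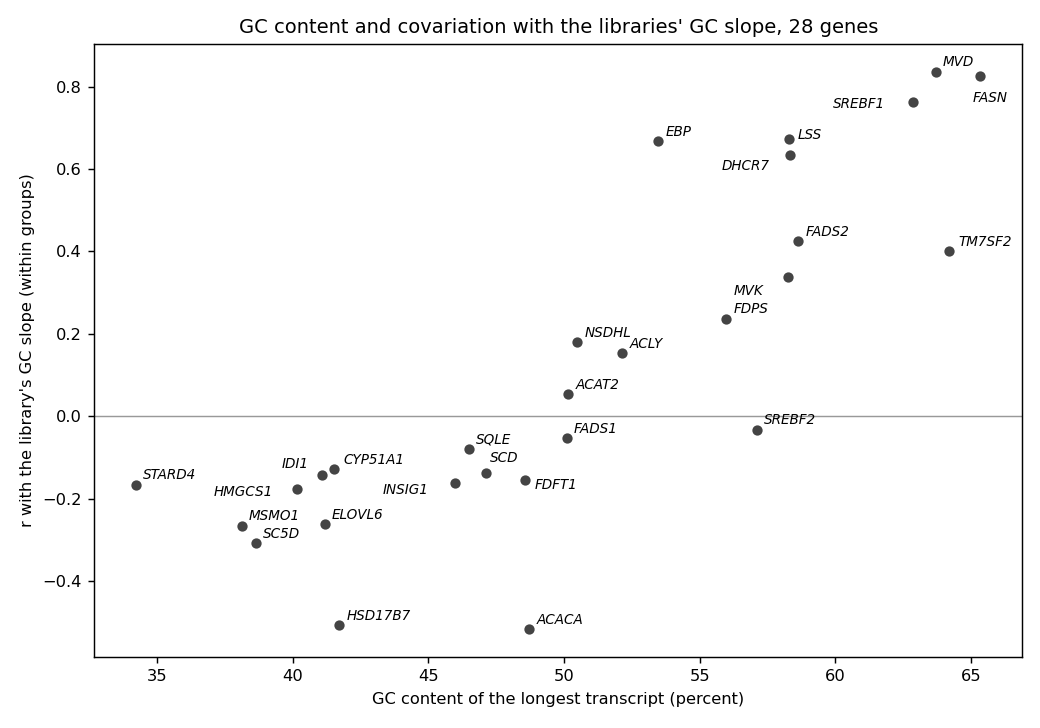
GC content of each member's longest transcript (percent) against the correlation of its level with the GC lean of the library, both as deviations from group means over 24 libraries; each point is 1 of the 28 genes. The 4 genes over 60% GC lie between 0.401 and 0.836, and the 8 under 45% GC lie below 0.

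Genes of the wider pathway were measured for 19 of 21 genes in a list of further sterol and fatty acid enzymes and regulators and for 13 of 15 in a list of sterol uptake, storage and efflux. Between constructs, ACSS2, which makes acetyl-CoA from acetate, was lower in miR-186 clones at week 29 and 0 nM by -1.25 ± 0.30 (limma adjusted p = 0.0269). NPC2, which carries cholesterol out of lysosomes, was lower at 0 nM by -0.82 at week 29 and -0.89 at week 12 (limma adjusted p = 0.0492 and 0.0309). STARD3, another sterol carrier, was higher at week 12 by 0.95 at 100 nM and 1.30 at 0 nM (limma adjusted p = 0.0264 and 0.00202). None was called at 100 nM and week 29. The neighbours of ACSS2, NPC2 and STARD3 were not examined, and the part of chromosome segments in their levels was not tested.

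Between weeks in miR-186 clones at 100 nM, 4 of these genes rose at week 29, GGPS1 by 0.77, HSD17B12 by 0.73, INSIG2 by 0.77 and SOAT1 by 0.71 (limma adjusted p = 0.0214, 0.0262, 0.0499 and 0.0473). In the same comparison the lipoprotein receptor SCARB1 was lower by -1.15 and MYLIP, a ligase that marks lipoprotein receptors for degradation, by -0.80 (limma adjusted p = 0.0285 and 0.0495). Of all genes tested, 7.11% were called higher there and 5.07% lower. Over all genes the calls fell to 376 higher and 353 lower with the GC correction, and to 23 and 80 with only the groups compared. Whether these pathway genes kept their calls under the alternatives is not given here. None of 12 measured genes of fatty acid oxidation was called by limma in any comparison, and at most 5 had an unadjusted p under 0.05, in the arsenic comparison of vector clones at week 12.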

How the data were processed

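RNA from 24 libraries of HaCaT clones was made into poly(A) libraries with a strand-marking kit (TruSeq Stranded mRNA), and all libraries were pooled and sequenced together, per the labels' protocols. The FPKM table was deposited by the authors. The submitters' processing notes name STAR 2.6.0c, Cuffdiff 2.2.1 and hg38 (GRCh38). The annotation release and the strand setting of the counting are not given in the sources used here. Of 58381 gene IDs, 58261 matched GENCODE release 29, which gave symbols, coordinates and GC content.

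The 14228 genes whose mean over the 24 libraries reached 0.5 FPKM were tested on log2(FPKM + 0.5) with limma 3.58.1 (trend and robust) in R 4.3.3. All 8 groups entered the same fit, with 12 comparisons of 2 groups and 6 differences between effects. Benjamini-Hochberg adjustment ran over all genes tested, at a threshold of 0.05. The procedure was tested on simulated data with known changes. The 28 genes, the pathway and marker lists and the tests were chosen with earlier results of these data known, and the CCAAT box was added after the data were seen. All 28 genes were to be described. Each comparison names every member past the threshold, or else the 2 with the smallest p. Each difference between effects names the 1 with the smallest p. Every called gene of the other pathway lists is named as well.

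Totals of mapped fragments are not in the table. The smallest steps of low FPKM values gave relative depths from 0.856 to 1.12. A replicate number was taken to pair libraries where every same-numbered pair had correlated deviations over 0.1. This held in 4 comparisons: arsenic in vector clones at week 29 (0.49, 0.46 and 0.62), construct at 0 nM and week 29 (0.21, 0.23 and 0.20), and week in vector clones at 0 nM (0.31, 0.52 and 0.17) and in miR-186 clones at 100 nM (0.34, 0.41 and 0.39). It did not hold in the other 8. The main fit held the 8 groups only and did not pair libraries in any comparison, because the labels do not tie the replicate number to a clone, batch or day. Libraries of the same clonal line at both doses and both weeks were thus treated as separate samples. The replicate number entered only as a block in an alternative fit.

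Alternatives were other pseudocounts (0.1 and 1), no filter, a mean of at least 2 FPKM, median-ratio scaling, only the groups compared, the replicate block, a spline correction for GC content, and each library left out in turn. Correlations used deviations from group means. RefSeq promoters (GRCh38.p14) were searched on both strands.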

Additional observations from a re-analysis of the deposited data

How the results depend on the processing

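Limits are set by 3 libraries a group, by clones that cannot be told apart from constructs, and by an FPKM table without total counts. None of the called changes turned its direction under any alternative. Changes near 0 that were not called did turn with the GC correction, for SREBF1 with arsenic in miR-186 clones (-0.09 in place of 0.12 at week 29 and -0.14 in place of 0.11 at week 12) and for FADS2 between weeks at 100 nM (0.17 in place of -0.25 in miR-186 clones and 0.05 in place of -0.24 in vector clones). The number of the 28 genes called moved in 7 of the 12 comparisons of 2 groups. For arsenic in vector clones at week 12 it was 1 in place of 0 (SREBF1) with a pseudocount of 1, a mean of at least 2 FPKM, median-ratio scaling or the replicate block. Between constructs at 0 nM and week 12 it was 0 in place of 2 with no filter or with only the groups compared. At 0 nM and week 29 it was 0 in place of 1 with no filter, and 2 (SREBF1 and ACACA) with the replicate block, the GC correction, or both. With only the groups compared it stayed at 1, but the gene was FADS2, and SREBF1 lost its call (limma adjusted p = 0.0532). At 100 nM and week 12 it was 1 in place of 0 (FADS2) with a pseudocount of 1, and 2 (SREBF1 and FADS2) with the replicate block, the GC correction, or both. At 100 nM and week 29 it was 0 in place of 1 with no filter or with only the groups compared. Between weeks in miR-186 clones it was 1 in place of 0 at 0 nM with only the groups compared or the replicate block (SREBF1 in both), and at 100 nM 1 (ACAT2) with no filter and 0 with only the groups compared, in place of 2. With the GC correction, alone or with the block, it stayed at 2 at 100 nM, but the genes were ACAT2 and FDPS in place of ACAT2 and SREBF1. The cause of these moves was not tested, except that only the groups compared means 6 libraries and no filter means 31357 genes tested. The replicate block changed no other count of called members by over 1.5 times.

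Leaving out 1 library, the count of called members ran from 0 to 2 between constructs at 0 nM (both weeks), from 0 to 1 at 100 nM (both weeks), from 0 to 1 between weeks in miR-186 clones at 0 nM and from 0 to 3 at 100 nM. The other 6 comparisons stayed at 0 members. The median change of the 28 genes ran from -0.62 to -0.18 between constructs at 100 nM and week 29, from -0.23 to 0.22 for arsenic in miR-186 clones at week 29, and from -0.15 to 0.38 between weeks in miR-186 clones at 100 nM. Leaving out replicate 2 of miR-186 clones at week 29 and 100 nM gave the -0.23 and the -0.15.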
